A study of Homo sapiens with 8 samples.

Results

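The laminin and basement membrane genes examined here are 9 genes taken by symbol, LAMA3, LAMA4, LAMA5, LAMB1, LAMB3, LAMC1, HSPG2, COL4A1 and NID1, out of a table in which 19775 genes could be named. For 8 of the 9, 18 probe sets carried that gene's symbol alone. LAMA3 was paired with no probe set in the annotation used, so it is not analysed here, and 1 probe set shared by LAMA5 and its antisense RNA was left out. RNA came from HuCCT1, an established human cholangiocarcinoma (bile duct cancer) line. On 4 arrays the cells carried a control shRNA and on 4 the hairpin labelled YAP shRNA 1, against YAP1, a coactivator of transcription held in check by Hippo signalling. Both groups received 100 ng/ml doxycycline, which induces the hairpin, over the 3 days that preceded seeding. With 1 hairpin against YAP1, effects of the hairpin itself cannot be told apart from those of YAP1 loss, and the labels do not state whether the 4 replicates of a group were grown apart, so each p-value reflects a spread among samples that may be technical only.

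Basement membranes are thin sheets of matrix beneath epithelia and around vessels. Laminins are trimers of an alpha, a beta and a gamma chain that polymerise into a network and are bound by integrins on the cell. Collagen IV forms a separate, covalently crosslinked network, and nidogen and the heparan sulfate proteoglycan perlecan, the product of HSPG2, bind to both networks. In bile ducts the cholangiocytes rest on such a sheet, which carcinoma cells both secrete and break down.

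The YAP1 signal itself fell 4.41-fold, with log2 means of 12.64 ± 0.0860 in controls and 10.50 ± 0.0702 with the hairpin (SD, n = 4 each; limma adjusted p = 6.15e-07) and no overlap of the groups, although the series title speaks of overexpression. Array medians lay between 6.22 and 6.25. Control shRNA replicate 4 stood apart, with a mean correlation of 0.9967 with its group, against 0.9978 to 0.9980 for the other control arrays. Results that rest on that array are given without it as well. The epithelial markers KRT7, KRT19, KRT8, KRT18, EPCAM, CDH1 and SOX9 were bright, with a mean log2 value per array of 13.38 to 13.40 in controls and 13.42 to 13.43 with the YAP shRNA. Of these 7, 2 rose and 0 fell, with a median log2 fold change of -0.05. CDH1, which encodes E-cadherin, rose by 0.33 and KRT19 by 0.15 (limma adjusted p = 0.000376 and 0.0137), and KRT7, KRT8, KRT18 and SOX9 stood between -0.08 and -0.05 without passing.

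Of the 8 measured genes, 4 rose (HSPG2, LAMA4, LAMA5 and LAMC1) and 0 fell. A gene was called when its limma p, adjusted by the Benjamini-Hochberg method over all 19775 genes, was below 0.05. Over all genes, 9.49% rose and 7.17% fell, so 16.7% were called. Among genes above the median control level 26.6% were called, and of the 8 genes only COL4A1 and NID1 lay below that level. The 4 of 8 stands beside both shares. The median log2 fold change of the 8 genes was 0.33, against 0.01 for all genes. The 8 were chosen with earlier results of these data known, so this contrast is descriptive only. In the same 4 genes the control and YAP shRNA arrays did not overlap, which held for 24.3% of all genes. Without control shRNA replicate 4, 5 genes rose, COL4A1 being added, and 0 fell.

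**Figure D1:**
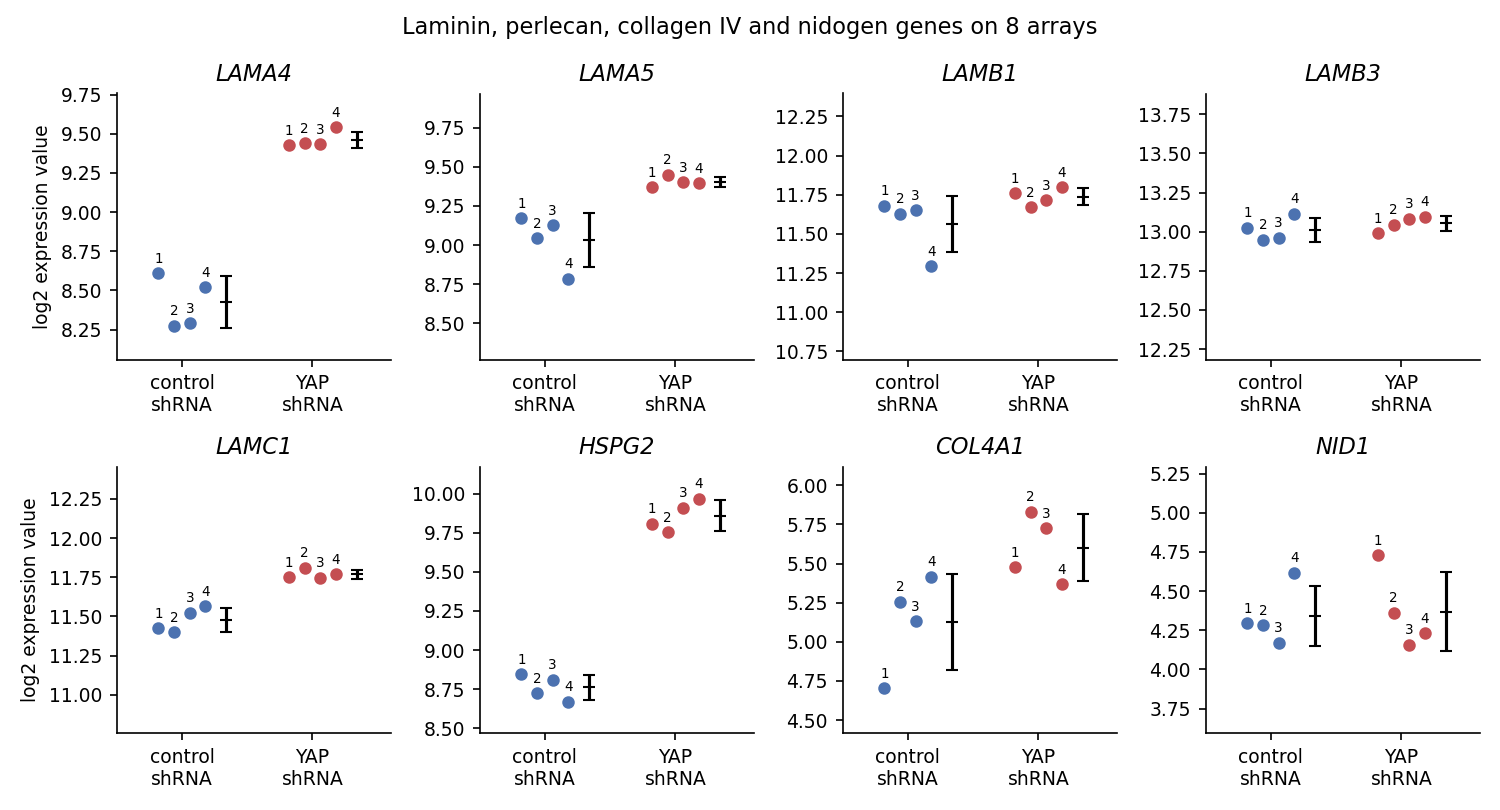
Log2 expression value (vertical axes, each spanning 1.7 log2 units) of the 8 measured genes on each array. Numbers beside points are replicate numbers, and bars are the group mean ± SD (n = 4). HSPG2 and LAMA4 lie about 1 log2 unit higher with the YAP shRNA, and control shRNA replicate 4 is the lowest array for LAMA5 and LAMB1.

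HSPG2 and LAMA4 had the largest rises, in an order that turned without control shRNA replicate 4, where LAMA4 stood at 1.069 and HSPG2 at 1.066, and with array weights, where they stood at 1.08 and 1.07. On the brighter probe set of HSPG2, control replicates 1 to 4 read 8.85, 8.73, 8.81 and 8.67, and YAP shRNA replicates 1 to 4 read 9.81, 9.75, 9.91 and 9.97. Every YAP shRNA array lay above every control array, with a gap wider than the range of either group. The rise was 2.14-fold (log2 fold change 1.10, standard error 0.0614, limma adjusted p = 2.51e-05). The second HSPG2 probe set gave 0.72, with controls at 6.99 to 7.36 and YAP shRNA arrays at 7.86 to 7.90 (limma adjusted p over all probe sets = 0.000416). Both probe sets have names ending in _s_at, which can match more than 1 transcript, so no value remained once such probe sets were left out.

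LAMA4 encodes the alpha 4 chain, a shorter alpha chain best known from vascular and mesenchymal basement membranes. Control replicates 1 to 4 read 8.61, 8.27, 8.29 and 8.52, and YAP shRNA replicates 1 to 4 read 9.43, 9.44, 9.43 and 9.54. The groups did not overlap, and the spread was wider in the controls, with an SD of 0.167 against 0.0540. LAMA4 rose 2.05-fold, or by 1.04 on the log2 scale, with a standard error of 0.0803 and a limma adjusted p of 0.000104. It had 5 probe sets, of which 4 rose and the dimmest, at 3.51 in controls, gave -0.15 without passing the test. The other 3 that rose gave 0.47, 0.50 and 0.70, the last a dim probe set at 4.48 in controls and just inside the threshold (limma adjusted p over all probe sets = 0.0460, or up to 0.115 with 1 array left out), so the size depends on the probe set, and the mean over all 5 gave 0.51 (limma adjusted p = 0.00260). Without probe sets ending in _x_at or _s_at, LAMA4 stood at 0.70 (limma adjusted p = 0.0434).

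LAMA4 and HSPG2 are also known from vessels, and markers of other cell types were therefore measured beside them. Of 8 endothelial markers, among them PECAM1, CDH5 and VWF, 0 rose and 0 fell by limma, and 1, PECAM1, had an unadjusted p under 0.05, with a log2 fold change of 0.25 and an adjusted p of 0.162. Their mean log2 value per array was 5.13 to 5.42 in controls and 5.29 to 5.38 with the YAP shRNA, under the median control level of all genes, 7.43. Of 10 fibroblast and smooth muscle markers, 1 rose, COL1A1, by 0.52 (limma adjusted p = 0.00316; 0.29 with the mean of its probe sets), and the list mean was 6.01 to 6.30 in controls and 6.13 to 6.26 with the YAP shRNA. Of 7 leukocyte markers, LYZ and CD14 rose by 0.86 and 0.46 and PTPRC, the pan-leukocyte antigen, fell by 0.22. Without probe sets ending in _x_at or _s_at LYZ stood at 0.49 (limma adjusted p = 0.0559) and PTPRC at -0.04, and the PTPRC call was lost in 6 of 8 fits with 1 array left out. The list mean was 4.88 to 5.04 in controls and 5.07 to 5.20 with the YAP shRNA. The part of these markers in the rises of HSPG2 and LAMA4 was not tested.

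LAMA5, the alpha 5 chain of the laminins found under most adult epithelia, rose less. Control replicates 1 to 4 read 9.17, 9.04, 9.13 and 8.79, and YAP shRNA replicates 1 to 4 read 9.37, 9.45, 9.40 and 9.40. Control replicate 4 was the lowest array and the groups did not overlap. LAMA5 rose 1.29-fold, or by 0.37 on the log2 scale, with a standard error of 0.0803 and a limma adjusted p of 0.0140. Without control shRNA replicate 4 it stood at 0.29 (limma adjusted p = 0.00324).

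Within each array the difference between LAMA4 and LAMA5 grew by 0.66 with the YAP shRNA. Set to a control mean of 0, the difference was -0.23 to 0.34 on control arrays and 0.60 to 0.75 on YAP shRNA arrays, with no overlap. The two-sided exact permutation p was 0.0286, the smallest that 4 arrays against 4 allow. After adjustment over the 4 gene pairs compared it was 0.114 and did not pass. A pair alone at that smallest p cannot pass after this adjustment, so the test cannot decide whether the rise was unequal. With the mean of all probe sets of each gene the difference was 0.14.

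The only gamma chain measured among the 8 genes was LAMC1, which encodes gamma 1, the chain that binds nidogen. Control replicates 1 to 4 read 11.43, 11.40, 11.52 and 11.57, and YAP shRNA replicates 1 to 4 read 11.75, 11.81, 11.75 and 11.77. All YAP shRNA arrays lay above all control arrays, and the spread was small in both groups. LAMC1 rose 1.22-fold, or by 0.29 on the log2 scale, with a standard error of 0.0475 and a limma adjusted p of 0.00359. Its second probe set gave 0.13 with overlapping groups and did not pass (limma adjusted p over all probe sets = 0.172).

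The beta chains did not pass the test. LAMB1, the beta 1 chain that pairs with gamma 1 in many laminins, read 11.68, 11.63, 11.65 and 11.29 in control replicates 1 to 4 and 11.76, 11.67, 11.72 and 11.80 in YAP shRNA replicates 1 to 4. The groups overlapped narrowly, and control replicate 4 was far below the other arrays. The log2 fold change was 0.17, with a 95% interval of -0.02 to 0.37 (limma adjusted p = 0.225). Without control shRNA replicate 4 it was 0.08, less than the value over all arrays by more than 1.5 times (limma adjusted p = 0.216). The second LAMB1 probe set showed the same low array, at 10.72 against 11.09 to 11.16 on the other control arrays, and gave 0.24 (limma adjusted p over all probe sets = 0.144).

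LAMB3, the beta 3 chain of the epithelial laminin of hemidesmosomes, was the brightest of the 8 signals. Control replicates 1 to 4 read 13.03, 12.95, 12.96 and 13.12, and YAP shRNA replicates 1 to 4 read 12.99, 13.05, 13.08 and 13.10. The groups overlapped almost wholly. The log2 fold change was 0.04, and its 95% interval of -0.07 to 0.15 (limma adjusted p = 0.666) held no change as large as those of LAMA5 or LAMC1. A signal this bright may respond less than in proportion to RNA, which was not tested. The difference between LAMB1 and LAMB3 within arrays changed by 0.13 (two-sided exact permutation p = 0.457, also after adjustment over 4 pairs), or 0.01 without control shRNA replicate 4.

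COL4A1 and NID1 were dim. COL4A1, the alpha 1 chain of the common collagen IV trimer, read 4.70, 5.26, 5.13 and 5.41 in control replicates 1 to 4 and 5.48, 5.83, 5.72 and 5.37 in YAP shRNA replicates 1 to 4. YAP shRNA replicate 4 fell within the control range, and the other YAP shRNA arrays lay above it. The log2 fold change was 0.47, with a 95% interval of 0.11 to 0.84, and did not pass (limma adjusted p = 0.0821). It passed without control shRNA replicate 4 (0.57, limma adjusted p = 0.0446), with a mean-variance trend (adjusted p = 0.0398) and with array weights (0.55, adjusted p = 0.0279). Its control mean lay at the 24.8th percentile of genes, and a second, dimmer probe set gave 0.14 (limma adjusted p over all probe sets = 0.342).

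NID1 encodes nidogen 1, which links laminin gamma 1 to collagen IV. Its brightest probe set read 4.30, 4.28, 4.17 and 4.62 in control replicates 1 to 4 and 4.73, 4.36, 4.16 and 4.23 in YAP shRNA replicates 1 to 4. The groups overlapped throughout. The log2 fold change was 0.03, with a 95% interval of -0.29 to 0.34 (limma adjusted p = 0.924). The other probe sets had control means of 2.76 and 2.54 and gave -0.16 and -0.07, neither passing. Those 2 lay at the 3.19th and 1.68th percentiles of probe sets in the controls, and with no detection call in the table it is unknown whether NID1 RNA was measured above background.

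The remaining pairs compared within arrays did not pass either. The difference between HSPG2 and COL4A1 grew by 0.62 (two-sided exact permutation p = 0.0571, adjusted p = 0.114), and NID1 minus LAMC1, negative on every array since NID1 was far dimmer, changed by -0.26 (exact permutation p = 0.143, adjusted p = 0.190). Over the 18 probe sets of the 8 genes, 8 rose and 0 fell in a fit over 41097 probe sets, of which 6.95% rose and 6.62% fell, or 13.6% in all. Of the 18, 15 had positive log2 fold changes, and the 3 negative ones were the 3 dimmest, 1 of LAMA4 and 2 of NID1.

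**Figure D2:**
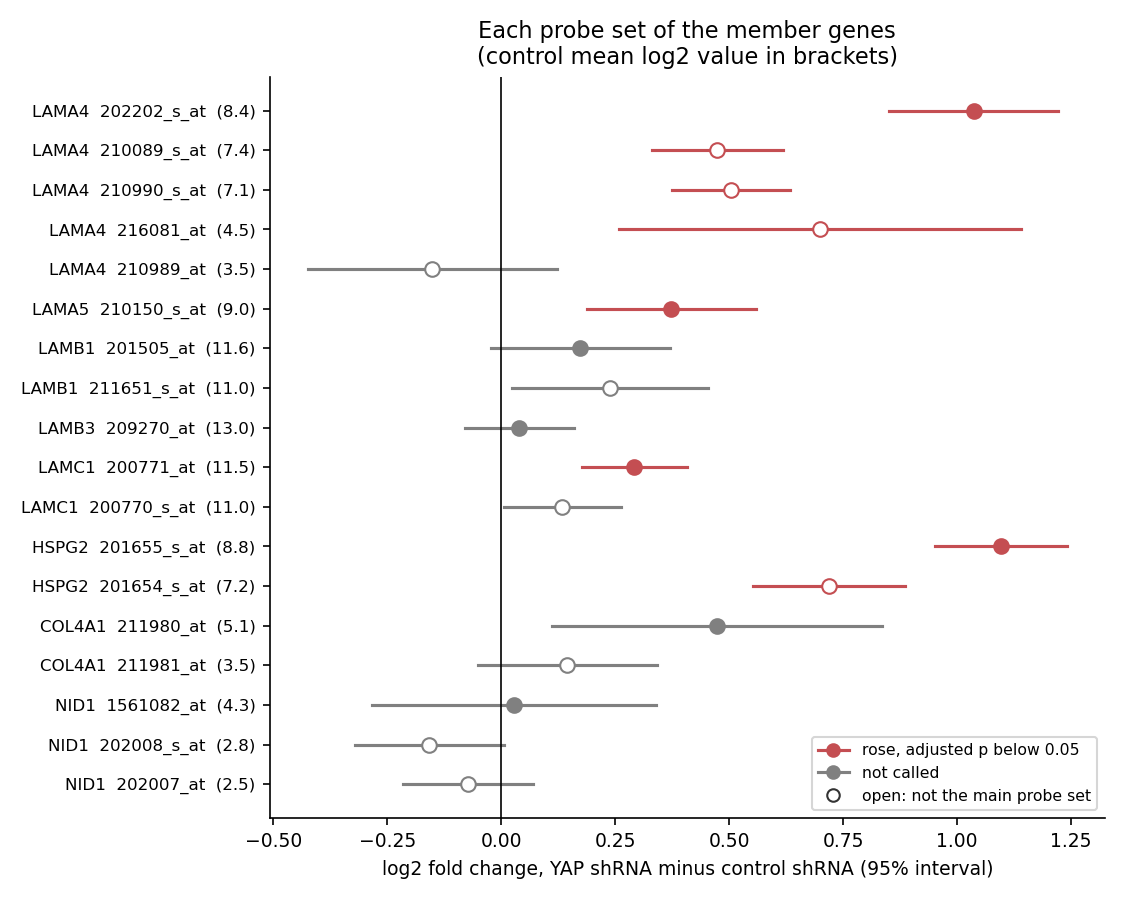
Log2 fold change, YAP shRNA minus control shRNA, with its 95% interval for each of the 18 probe sets, with the control mean in brackets. Filled points are the brightest probe set of a gene and red marks those that rose. All HSPG2 probe sets and 4 of 5 LAMA4 probe sets rose, while those of LAMB1, LAMB3, COL4A1 and NID1 did not pass.

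The 250 bases before the annotated start of HSPG2, LAMA4 and COL4A1 are shown because HSPG2 and LAMA4 rose together and COL4A1 shares its start region with COL4A2. They come from RefSeq on GRCh38.p14 and read 5′ to 3′ on the strand of the gene, all 3 on the minus strand, at chr1:21937311-21937560, chr6:112254568-112254817 and chr13:110307158-110307407. Capitals mark the GC box GGGCGG on either strand, overlapping matches included.
HSPG2: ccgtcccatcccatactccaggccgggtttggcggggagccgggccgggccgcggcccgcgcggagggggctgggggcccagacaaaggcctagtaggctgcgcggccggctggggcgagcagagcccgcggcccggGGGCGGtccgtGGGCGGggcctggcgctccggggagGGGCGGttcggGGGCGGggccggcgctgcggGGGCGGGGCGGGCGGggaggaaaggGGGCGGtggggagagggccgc
LAMA4: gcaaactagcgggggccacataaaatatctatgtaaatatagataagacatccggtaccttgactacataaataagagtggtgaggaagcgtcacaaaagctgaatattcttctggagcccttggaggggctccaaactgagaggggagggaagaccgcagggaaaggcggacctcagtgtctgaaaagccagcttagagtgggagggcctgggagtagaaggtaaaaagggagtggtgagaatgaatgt
COL4A1: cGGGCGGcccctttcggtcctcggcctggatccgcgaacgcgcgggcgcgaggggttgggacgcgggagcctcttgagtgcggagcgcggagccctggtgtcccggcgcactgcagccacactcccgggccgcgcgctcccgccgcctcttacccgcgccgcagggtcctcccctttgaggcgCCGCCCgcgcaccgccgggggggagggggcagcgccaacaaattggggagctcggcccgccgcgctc
The HSPG2 window held 8 GC boxes, the LAMA4 window 0 and the COL4A1 window 2. Of 35116 such windows, 42.6% held at least 1 and 0.584% held 8 or more. HSPG2 was 82.8% G and C and LAMA4 48.4%, where the median window had 58.0%, so the 2 genes with the largest rises had unlike start regions. Among the others, the window of LAMA5 held 5 GC boxes, LAMB1 4, LAMC1 3, NID1 1 and each of the 3 LAMB3 starts 1. The letters GGAATG, the core of the TEAD motif, searched on both strands, occurred in 0 of these windows and in 11.9% of all windows. The AP-1 letters TGANTCA occurred in 1 LAMB3 window and in 6.57% of all, and the E-box letters CACCTG in the LAMA5 window, in 1 LAMB3 window and in 17.5% of all. These are matches of letters in a short window and say nothing of whether a factor binds there.

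COL4A2, which encodes the partner chain of COL4A1, starts 126 bases from it on the opposite strand. It read 6.51, 6.22, 6.27 and 6.34 in control replicates 1 to 4 and between 6.29 and 6.53 in the YAP shRNA replicates. The groups overlapped, with a log2 fold change of 0.11 (limma adjusted p = 0.408). Of 13 other collagen IV chains and linkers of the networks, 4 rose and 1 fell, or 38.5% called, beside 16.7% of all genes. PXDN, the peroxidase that crosslinks collagen IV, rose by 0.62 (limma adjusted p = 0.000161), and its control arrays, at 6.53 to 6.71, lay below its YAP shRNA arrays, at 7.17 to 7.28. The microfibrillar collagen genes COL6A2 and COL6A1 rose by 0.47 and 0.30, and COL18A1, the collagen whose cleavage yields endostatin, by 0.20, a call lost without YAP shRNA replicate 1 or 3; the mean of all COL18A1 probe sets gave 0.13 (limma adjusted p = 0.0818). None of the 4 rises was a collagen IV chain. COL4A5, the alpha 5 chain of collagen IV, fell by 0.24 (limma adjusted p = 0.0297), a call lost in 6 of 8 fits with 1 array left out. COL4A6 had the largest change of the collagen IV chains, -0.61, and did not pass (limma adjusted p = 0.0785). COL6A2 stood at 0.03 without probe sets ending in _x_at or _s_at. With single arrays left out the list gave 3 to 5 rises and 0 to 2 falls.

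Other laminin chains did not rise. Of 8 measured genes for other laminin chains and the laminin-related netrins, 12.5% were called, beside 16.7% of all genes: 0 rose and 1 fell. That gene was NTN4, whose product disrupts laminin networks by binding gamma 1. It fell by 0.24, from 9.25 to 9.01 (limma adjusted p = 0.00557), with groups that did not overlap. LAMB2, the beta 2 chain, stood at -0.03 and the dim LAMB4 at -0.35 (limma adjusted p = 0.148). The list's median was -0.04, beside 0.33 for the 8 genes above, both sets chosen with earlier results of these data known.

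Basement membrane proteoglycans and glycoproteins moved in both directions. Of 23 measured, 3 rose and 4 fell, with a median of 0.02. In all 30.4% were called, beside 16.7% of all genes. NPNT, which encodes the integrin ligand nephronectin, rose by 0.85, and its control arrays read 7.22 to 7.51 against 8.08 to 8.30 (limma adjusted p = 0.000145). SMOC1, a SPARC-related glycoprotein gene, rose by 0.82, although control shRNA replicate 4 stood at 7.63, below 8.38 to 8.47 on the other control arrays. Without that array it rose by 0.63. EFEMP1 and FBLN1, members of the fibulin family, fell by 0.86 and 0.63 (limma adjusted p = 0.000116 and 0.000225). With the mean of all probe sets FBLN1 stood at -0.32 and NPNT at 0.44, both still called. TINAG rose by 0.26 and ECM1 fell by 0.24, calls lost in 7 and 5 of 8 fits with 1 array left out. The remaining fall was THBS1, by 0.20 (limma adjusted p = 0.0280), a call also lost in 5 of those 8 fits. Agrin, like perlecan a heparan sulfate proteoglycan, did not pass, with AGRN at 0.14 (limma adjusted p = 0.102). With single arrays left out the list gave 2 to 4 rises and 2 to 7 falls, with 7 falls without control shRNA replicate 4 and 2 without control shRNA replicate 2 or YAP shRNA replicate 1, 2 or 4.

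Cells bind laminin and collagen IV through integrins and other surface receptors. Of 16 measured receptors of laminin and collagen IV, 4 rose and 1 fell, with a median of 0.00. The share called, 31.3%, stands beside 16.7% of all genes and 26.6% of those above the median level. ITGB8, an integrin beta chain that pairs with alpha V, rose by 1.23 (limma adjusted p = 6.22e-05), with controls at 8.48 to 8.83 and YAP shRNA arrays at 9.76 to 9.93. ITGA1, the alpha chain of a collagen IV receptor, rose by 0.56 and ITGAV by 0.23. ITGB4, the beta chain of the laminin receptor in hemidesmosomes, rose by 0.23 (limma adjusted p = 0.0249), a call lost in 4 of 8 fits with 1 array left out, and stood at 0.13 without probe sets ending in _x_at or _s_at. The laminin-binding integrin genes ITGA3, ITGA6 and ITGB1 stood at 0.07, -0.06 and -0.03 and did not pass. GPC1 fell by 0.16, just inside the threshold (limma adjusted p = 0.0499), a call lost in 7 of 8 fits with 1 array left out. With single arrays left out the receptor list gave 3 to 5 rises and 0 to 2 falls.

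Inside the cell, 1 rose and 2 fell of 13 hemidesmosome and adhesion adaptor genes, or 23.1% called. The list's median control level was 11.3, and among all genes above the median level 26.6% were called, so the count is no higher than that share. PLEC, the plakin that ties hemidesmosomes to keratin filaments, rose by 0.33 (limma adjusted p = 0.00536). PARVA and FERMT2, adaptors of focal adhesions, fell by 0.29 and 0.26 (limma adjusted p = 0.00598 and 0.0135). PARVA stood at 0.07 without probe sets ending in _x_at or _s_at. The count of rises was 2 without control shRNA replicate 4.

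Of 17 genes for folding and modification of collagen and laminin, 1 rose and 3 fell, or 23.5% called. Their median control level was 11.5, and 26.6% of all genes above the median level were called, so this count too is no higher. P3H2, a prolyl 3-hydroxylase that acts on collagen IV, fell 2.17-fold, from 9.70 to 10.10 on control arrays to 8.58 to 8.80 with the YAP shRNA (limma adjusted p = 0.000137). Without probe sets ending in _x_at or _s_at P3H2 stood at -0.03 (limma adjusted p = 0.806), so that fall rests on the probe set used. The lysyl hydroxylase genes PLOD2 and PLOD1 fell by 0.27 and rose by 0.21. QSOX1, a disulfide-forming oxidase that acts in laminin assembly, fell by 0.13, a call lost in 7 of 8 fits with 1 array left out, and the PLOD1 call was lost without YAP shRNA replicate 3 (limma adjusted p = 0.0508). The count of rises was 0 without YAP shRNA replicate 3 and 3 without control shRNA replicate 4.

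The heparan sulfate chains of perlecan are built and then trimmed by a set of enzymes of which 17 were measured, and 3 rose and 3 fell. The share called was 35.3%, beside 16.7% of all genes and 26.6% of those above the median level. SULF2, a sulfatase that trims heparan sulfate outside the cell, rose by 0.81, with controls at 7.63 to 7.91 and YAP shRNA arrays at 8.46 to 8.60 (limma adjusted p = 0.000152). HS3ST1, a 3-O-sulfotransferase gene, rose by 0.30. XYLT1, which starts the chain on the core protein, fell by 0.45 (limma adjusted p = 0.0175), and NDST1, which sulfates glucosamine, by 0.17. EXT2, a chain polymerase gene, fell by 0.24 and EXTL3, which starts chain elongation, rose by 0.21. The calls on EXTL3, EXT2 and XYLT1 were lost in 6, 5 and 2 of 8 fits with 1 array left out, XYLT1 without YAP shRNA replicate 2 or 4, and XYLT1 stood at -0.12 without probe sets ending in _x_at or _s_at. With single arrays left out the list gave 2 to 3 rises and 1 to 3 falls.

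Enzymes that break down basement membrane include matrix metalloproteinases, the urokinase system and heparanase. Of 21 measured proteases, heparanase and inhibitors, 8 rose and 1 fell, with a median of 0.12, or 9 rises without control shRNA replicate 4, 6 without YAP shRNA replicate 4 and 5 without any other single array. MMP9, a gelatinase that cleaves collagen IV, rose by 1.41, from 6.16 to 6.87 on control arrays to 7.76 to 8.11 (limma adjusted p = 0.000324). MMP7, or matrilysin, rose by 1.25 (limma adjusted p = 5.43e-05), PLAU, the urokinase gene, by 0.40 and CTSB, a lysosomal protease gene, by 0.42. The 8 also include BMP1, which processes laminin chains and perlecan, at 0.19 and TIMP1, which encodes an inhibitor of metalloproteinases and not a protease, at 0.21, calls lost in 6 and 7 of 8 fits with 1 array left out. MMP15 and MMP14 rose by 0.36 and 0.18 (limma adjusted p = 0.00541 and 0.0431). The MMP14 call was lost in 7 of those 8 fits. Without probe sets ending in _x_at or _s_at MMP15 stood at 0.16 (limma adjusted p = 0.258). HPSE, the heparanase gene, fell by 0.27 with overlapping groups, a call lost in 7 of 8 fits with 1 array left out. Across all 8 pathway lists, 24 of 128 measured genes rose and 16 fell, or 31.3% changed. Over all genes 16.7% changed, and 26.6% of those above the median level. The 128 were not filtered by level, and their median control level was 8.90, against 7.43 for all genes.

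**Figure D3:**
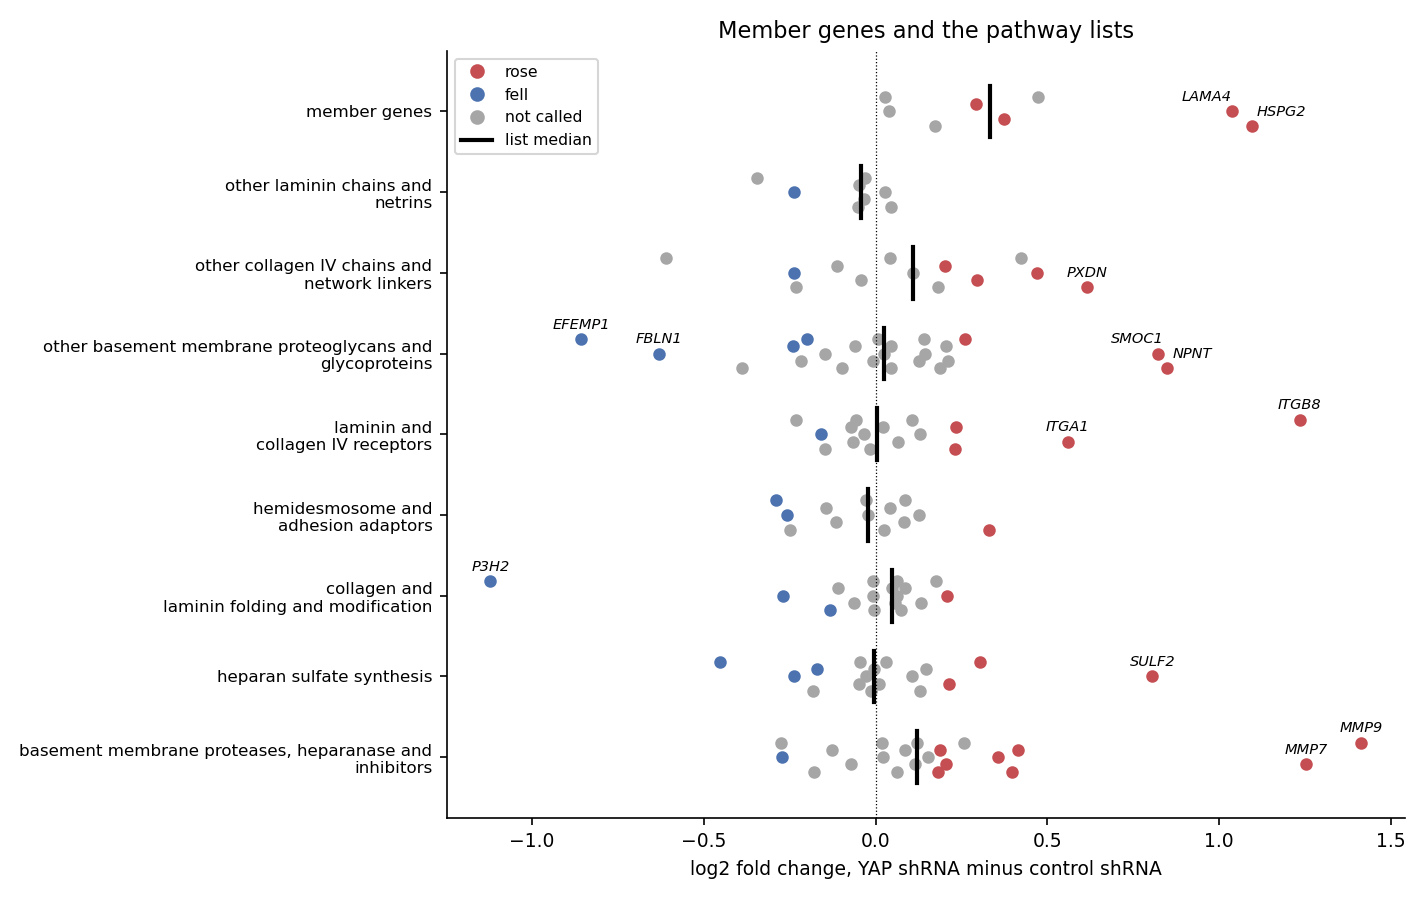
Log2 fold change, YAP shRNA minus control shRNA, of each measured gene, by list, with red for genes that rose, blue for genes that fell, grey for genes not called and a bar at each list's median. The 8 genes above have a median of 0.33, and the medians of the 8 pathway lists run from -0.04 to 0.12. Genes and lists were chosen with earlier results of these data known, so these medians are descriptive only.

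Leaving out each array in turn moved the 4 genes that rose little. HSPG2 ranged from 1.06 to 1.13, LAMA4 from 0.99 to 1.10, LAMC1 from 0.27 to 0.32 and LAMA5 from 0.29 to 0.42, and each was called in all 8 fits over genes (largest limma adjusted p = 0.000242, 0.000763, 0.0156 and 0.0445). In the fit over all probe sets the LAMA5 call was less stable. Its limma adjusted p reached 0.0539 with 1 array left out and 0.0526 in the other alternatives. LAMB1 and LAMB3 were called in none of the 8 fits, with LAMB1 at 0.08 to 0.21 and LAMB3 at 0.02 to 0.07 (smallest limma adjusted p = 0.177 and 0.269). COL4A1 ranged from 0.33 to 0.57, lowest without control shRNA replicate 1, and NID1 from -0.09 to 0.12.

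**Figure D4:**
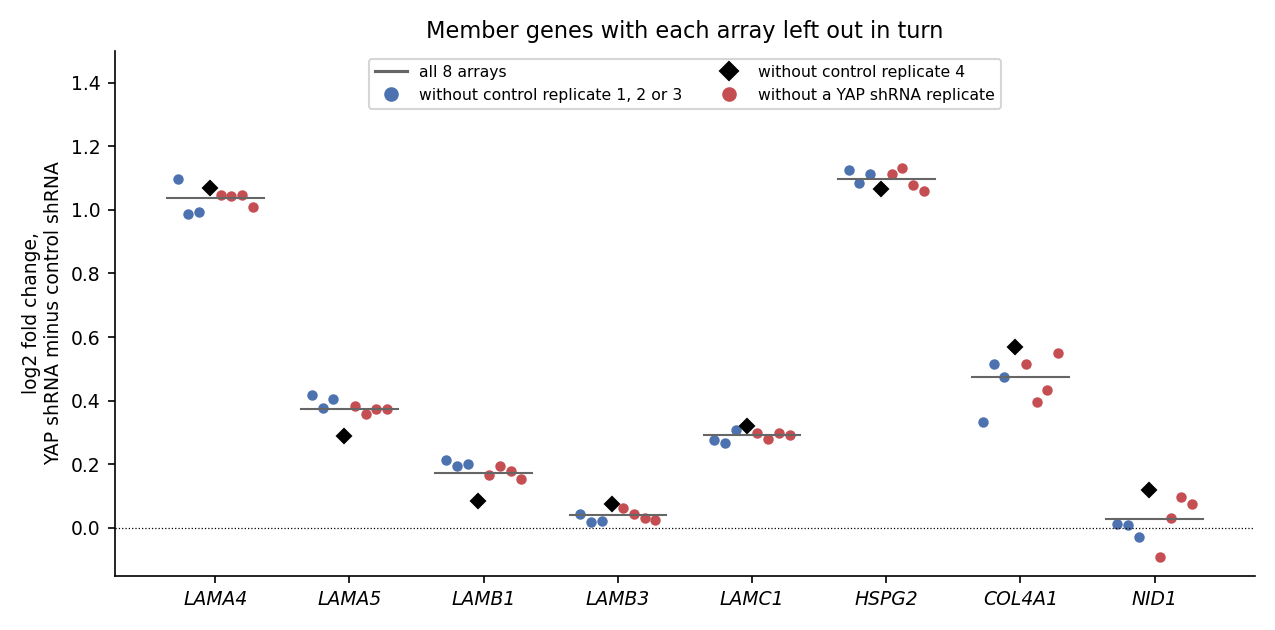
Log2 fold change, YAP shRNA minus control shRNA, of the 8 genes with all arrays (grey line) and with each array left out in turn (points). Without control shRNA replicate 4 (diamonds) LAMA5 falls from 0.37 to 0.29 and LAMB1 from 0.17 to 0.08, and COL4A1 rises from 0.47 to 0.57.

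The genes whose profiles were most like those of the 3 largest rises were found by the root mean square difference between log2 profiles over the 8 arrays, each centred on its own mean. For HSPG2 these were CRABP2, FUT2 and CDH6, at 0.0741, 0.0752 and 0.0756 log2 units. For LAMA4 they were FUT3, SERPINB9P1 and RTP4, at 0.0672, 0.0793 and 0.0815. For LAMA5 they were STAT6, C15orf39 and SCD, at 0.0329, 0.0388 and 0.0389. All of these genes rose, by 0.37 to 1.13, which follows from their choice by likeness to a risen gene on the same arrays. None is in the lists above, and C15orf39 stood at -0.20 without probe sets ending in _x_at or _s_at.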

How the data were processed

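Expression was measured on 8 Affymetrix arrays of HuCCT1 RNA, amplified and labelled with biotin per the labels' protocols. The authors deposited a log2 value for each probe set on each array. Values ran from 1.72 to 14.9, from which base 2 was inferred. How background was corrected and values summarised and normalized is not given in the sources used here. Array medians spanned 0.0339, under a limit of 0.5, so no further normalization was applied. The platform annotation gave 1 symbol to 41097 of 54675 probe sets. The probe set with the highest 8-array mean stood for its gene. The table has no detection call, and the number of arrays limits the precision.

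The fit was limma 3.58.1 in R 4.3.3, YAP shRNA minus control shRNA, over all 19775 genes, tested on simulated data. Gene pairs were compared by two-sided exact permutation tests of within-array differences, and pairs with LAMA3 could not be computed. The genes named are the 9 symbols, YAP1, up to 3 rises and 3 falls per list by size, the largest called change per marker list and the nearest profiles. COL18A1, ITGB4, ITGA3, ITGA6, ITGB1, AGRN, THBS1, LAMB2, LAMB4, COL4A2, COL4A6, PECAM1, KRT7, KRT8, KRT18, KRT19, SOX9, PLAU, MMP14, MMP15, BMP1, TIMP1, CD14 and PTPRC were named after their values were seen. Members and lists were chosen with earlier results of these data known. The main fit did not pair samples by replicate number, since the labels do not state a pairing. Same-numbered arrays had correlations of deviations from -0.21 to 0.00, which cannot exclude one. Alternatives were other normalizations, level filters, probe set choices, spread models and thresholds, a fit with a replicate block, and fits that each left out 1 array. Figures were drawn with matplotlib 3.10.9.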

Additional observations from a re-analysis of the deposited data

Results flagged for a closer look

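In 112 groups of 4 values, from the probe sets of the 8 genes, YAP1 and the named list genes, 11 held a single array well outside the range of the remaining 3; chance alone would give about 5.60. Of the 11, 6 lay in control shRNA replicate 4. There LAMB1 was low at 11.29 (11.63 to 11.68 on the other control arrays), as was its second probe set at 10.72 (11.09 to 11.16). COL4A5 was low at 9.14 (9.33 on the others) and SMOC1 at 7.63 (8.38 to 8.47), while ITGAV was high at 11.90 (11.82 to 11.83) and SULF2 at 7.91 (7.63 to 7.67). In control shRNA replicate 3, YAP1 was high at 12.77 (12.59 to 12.61) and GPC1 at 7.94 (7.83 to 7.84). In YAP shRNA replicate 4, LAMA4 was high at 9.54 (9.43 to 9.44) and PLOD2 low at 12.65 (12.75 to 12.77). EXT2 was low at 11.04 in YAP shRNA replicate 3 (11.19 to 11.21).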

How the results depend on the processing

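The 4 member calls kept their direction in every alternative that could give them a value. NID1, near 0, changed sign to -0.0679 with the mean of all probe sets, and ran from -0.0912 (without YAP shRNA replicate 1) to 0.120 (without control shRNA replicate 4), being -0.03 without control shRNA replicate 3. The genes called, rising and falling over the whole table, from 3294, 1876 and 1418, were 2106, 1222 and 884 with the replicate block, 1785, 1022 and 763 at an adjusted p under 0.01, and 494, 268 and 226 with at least a 1.5-fold change. The labels do not state whether same-numbered arrays belong together. In the block fit over genes the 4 member calls stayed (limma adjusted p = 0.00247 for HSPG2, 0.00252 for LAMA4, 0.0313 for LAMC1 and 0.0435 for LAMA5). Of the members, 2 rose at 1.5-fold or more, and 2 without probe sets ending in _x_at or _s_at, where HSPG2 and LAMA5 had none left. Of the member probe sets, 4 were called and 4 rose at 1.5-fold or more. Pathway genes called, rising and falling, from 40, 24 and 16, were 19, 14 and 5 without probe sets ending in _x_at or _s_at, 21, 15 and 6 at an adjusted p under 0.01 and 10, 7 and 3 at 1.5-fold. With the block, 26 were called and 10 fell. PARVA turned to 0.0684 and C15orf39 to -0.20 without probe sets ending in _x_at or _s_at, and QSOX1 to 0.13 with its most variable probe set; the cause was not tested.

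With single arrays left out, 2381 to 3881 genes were called, 1362 to 2249 rose and 1019 to 1632 fell. Of the members, 4 to 5 rose, and of their probe sets 6 to 9. Of the pathway genes, 27 to 51 were called, 16 to 30 rose and 10 to 21 fell, each count highest without control shRNA replicate 4. No gene pair passed in any alternative, and a pair alone at its smallest exact p could not have passed after adjustment in any of them. Leaving out an array leaves the exact test of a pair no p below 0.0571. Filters on dim genes removed NID1, and COL4A1 at the median level. Signal over background could not be judged, which limits COL4A1 and NID1 most.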
